A study of Homo sapiens with 6 samples.

Results

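The HOX clusters of SU-CCS-1, a clear cell sarcoma line of human origin that carries the EWSR1::ATF1 (EA1) fusion, were examined for H3K27ac, the acetylated histone H3 lysine found at active promoters and enhancers. Chromatin immunoprecipitation sequencing was done on 3 H3K27ac replicates with 3 inputs, all from the same untreated line, and the deposited result is 1 merged list of 30784 peaks without a value for any replicate. The genes were chosen by family name from GENCODE, with earlier results of these data known. They were 38 of 20015 protein-coding genes, namely 10 in HOXA on chromosome 7, 10 in HOXB on chromosome 17, 9 in HOXC on chromosome 12 and 9 in HOXD on chromosome 2. A cluster body ran from the first to the last of these genes, and the cluster window added 100 kb on each side. The 4 windows held 23 peaks. Because the list gives presence and width only, the comparisons below carry no test between replicates, and a peak does not tell what share of cells or alleles carried the mark.

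HOX genes encode homeodomain transcription factors that give cells their position along the head-to-tail axis of the embryo and along the limb. The genes are numbered by paralog group. The low-numbered genes stand at one end of each cluster and are used toward the head, and the high-numbered genes stand at the other end and are used toward the tail and the limb tip. Polycomb proteins keep unused HOX genes silent, and proteins of the MLL group keep used ones active. The clusters also hold antisense and long noncoding RNAs and the miR-10 and miR-196 families of microRNAs.

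HOXB, HOXC and HOXD carried peaks and HOXA did not. HOXC was the most covered, with 9 peaks over 15.6% of its body, HOXB had 5 peaks over 4.27%, HOXD had 3 peaks over 3.24%, and HOXA had none in its body or in its 299.7-kb window. A promoter peak, meaning at least 1 peak base within 3 kb of any start site of the gene, was present for 14 of the 38 HOX genes (36.8%, 95% Wilson interval 23.4 to 52.7, counting error only). The interval takes the genes as independent, although neighbours share peaks. Over all protein-coding genes the share was 63.4%. The gap depended on the peaks counted. With the widest 50% of peaks the shares were 34.2% of HOX genes and 49.0% of protein-coding genes, and with the widest 25% they were 23.7% and 26.9%, so the shortfall nearly closed for wide peaks. The genes with a promoter peak were HOXB3, HOXB4, HOXB6, HOXB7 and HOXB8, then HOXC4, HOXC6, HOXC8, HOXC9, HOXC10, HOXC11 and HOXC13, and finally HOXD3 and HOXD8.

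Promoter sequences are shown first for genes on both sides of this pattern, chosen as examples. They are the 250 bases before the RefSeq start site on GRCh38.p14, read 5′ to 3′ on the strand of the gene, with CG dinucleotides in capitals. The first pair have a start site inside a peak, the second pair lie in the HOXA cluster without a peak.
HOXC4 and HOXC5, shared start (chr12:54016638-54016887, plus strand): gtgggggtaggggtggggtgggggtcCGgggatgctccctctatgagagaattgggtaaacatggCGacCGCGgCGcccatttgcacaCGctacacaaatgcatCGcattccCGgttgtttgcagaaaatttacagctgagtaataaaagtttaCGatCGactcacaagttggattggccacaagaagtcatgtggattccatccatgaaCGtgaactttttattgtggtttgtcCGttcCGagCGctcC
HOXD8 (chr2:176129455-176129704, plus strand): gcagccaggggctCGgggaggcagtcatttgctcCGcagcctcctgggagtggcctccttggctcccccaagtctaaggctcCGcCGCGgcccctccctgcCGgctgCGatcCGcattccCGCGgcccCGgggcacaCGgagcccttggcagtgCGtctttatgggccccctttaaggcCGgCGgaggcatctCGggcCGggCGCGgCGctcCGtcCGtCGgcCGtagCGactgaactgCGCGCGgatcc
HOXA9 (chr7:27165538-27165787, minus strand): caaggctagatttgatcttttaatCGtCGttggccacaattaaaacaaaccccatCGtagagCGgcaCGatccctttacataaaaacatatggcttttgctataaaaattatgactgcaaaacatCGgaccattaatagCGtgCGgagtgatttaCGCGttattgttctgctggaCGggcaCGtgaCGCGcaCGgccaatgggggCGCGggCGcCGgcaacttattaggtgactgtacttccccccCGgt
HOXA13 (chr7:27200092-27200341, minus strand): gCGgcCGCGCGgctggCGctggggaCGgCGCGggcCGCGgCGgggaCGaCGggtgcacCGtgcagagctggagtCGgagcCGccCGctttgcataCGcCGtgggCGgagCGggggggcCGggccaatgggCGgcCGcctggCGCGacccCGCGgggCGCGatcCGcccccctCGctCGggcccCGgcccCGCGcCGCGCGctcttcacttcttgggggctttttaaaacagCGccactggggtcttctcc
The printed bases hold 14 CG dinucleotides in the shared HOXC4 and HOXC5 promoter, 28 in HOXD8, 20 in HOXA9 and 40 in HOXA13. HOXA13 had the highest number among the 16 HOXA promoters found in RefSeq, which ranged from 0 to 40 with a median of 19. Of these 16, 7 held fewer CG than the shared HOXC4 and HOXC5 promoter, which lies in a peak. Most of these 7 are alternative starts of the single gene HOXA3.

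CG content was measured over the full 300-base promoters, which reach 50 bases past the start site. RefSeq entries were matched for 20 of the 38 genes, giving 27 promoters, of which the HOXC4 and HOXC5 entries are the same window and 16 belong to HOXA. Of the 8 genes whose representative start lay in a peak, 1 (HOXD8) had an entry and 7 had none, so the HOX promoters measured here are mostly those outside peaks. Among all promoters, those with a start site inside a peak had a median observed over expected CpG of 0.853, and those with a start outside peaks had 0.287. The 24 HOX promoters with a start outside peaks had a median of 0.855, with a range from 0 to 1.27. They include several alternative starts of HOXA3 and of HOXA10, so they come from fewer genes. Promoters were called CpG-rich at a GC content of 50% or more and a ratio of 0.6 or more, limits chosen after the medians had been seen. Of 20 CpG-rich HOX promoters, 3 had their start inside a peak, beside 72.3% of all CpG-rich promoters. All 3 belonged to HOXC4, HOXC5 and HOXD8, and 11 of the 17 others belonged to HOXA. Because 7 of the 8 genes with their representative start in a peak had no entry, the HOX count cannot be read as a share of the clusters.

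**Figure D1:**
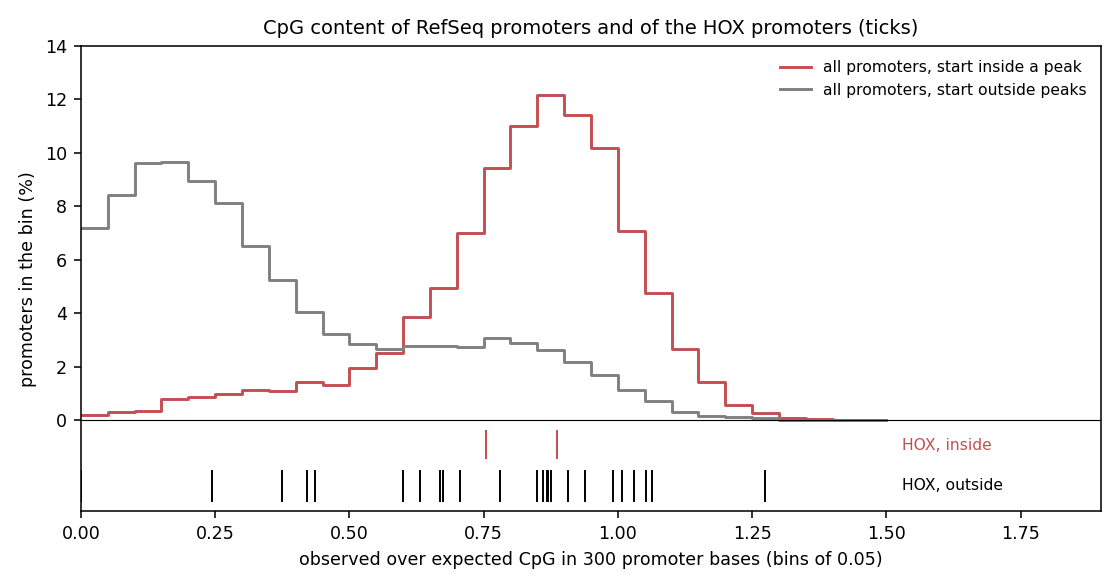
Share of all RefSeq promoters (y axis, percent) by observed over expected CpG in 300 bases (x axis, bins of 0.05), for starts inside and outside H3K27ac peaks, with each HOX promoter as a tick below. The ticks of HOX promoters outside peaks lie mostly in the range of the promoters inside peaks, with medians of 0.855 and 0.853.

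HOXA, which patterns the hindbrain, the axis and the limb, lay in a stretch without any peak on chromosome 7 from 26865291 to 27662030. This stretch of 796.7 kb ranked 580 by length among 30634 such stretches between neighbouring peaks that are free of assembly gaps, a comparison chosen after the cluster had been seen. It held 13 protein-coding start sites, a number reached by 29 of the 30634 stretches. The peaks that bound it were 1300 and 1570 bases wide and stood 235.1 and 461.9 kb from the cluster body. They lay within 3 kb of start sites of SKAP2 and HIBADH, named after their values were seen. Numbering of the peaks in the list ran on without a break across the stretch. Whether peaks were removed before numbering is not known from the list.

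All 10 HOXA genes had 0 bases in peaks within 3 kb of their start sites. The nearest peak was 237.4 kb from the start site of HOXA2, a gene of the hindbrain and second pharyngeal arch. For HOXA3, HOXA4, HOXA5, HOXA6 and HOXA7 it was between 265.5 and 291.4 kb away, for HOXA10 309.03 kb and for HOXA11 319.9 kb. It was 300.2 kb from HOXA9, a gene of the posterior axis and of blood stem cells, and 334.8 kb from HOXA13, a gene of the limb tip and the urogenital tract. Between 3.88% and 6.02% of all protein-coding genes had a start site at least as far from a peak as those of the HOXA genes. The 7 named long noncoding RNA genes of the HOXA window, among them HOTAIRM1 and HOTTIP at opposite ends of the cluster, had no promoter peak either. EVX1, the homeobox gene beyond HOXA13, stood 377.5 kb from the nearest peak.

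**Figure D2:**
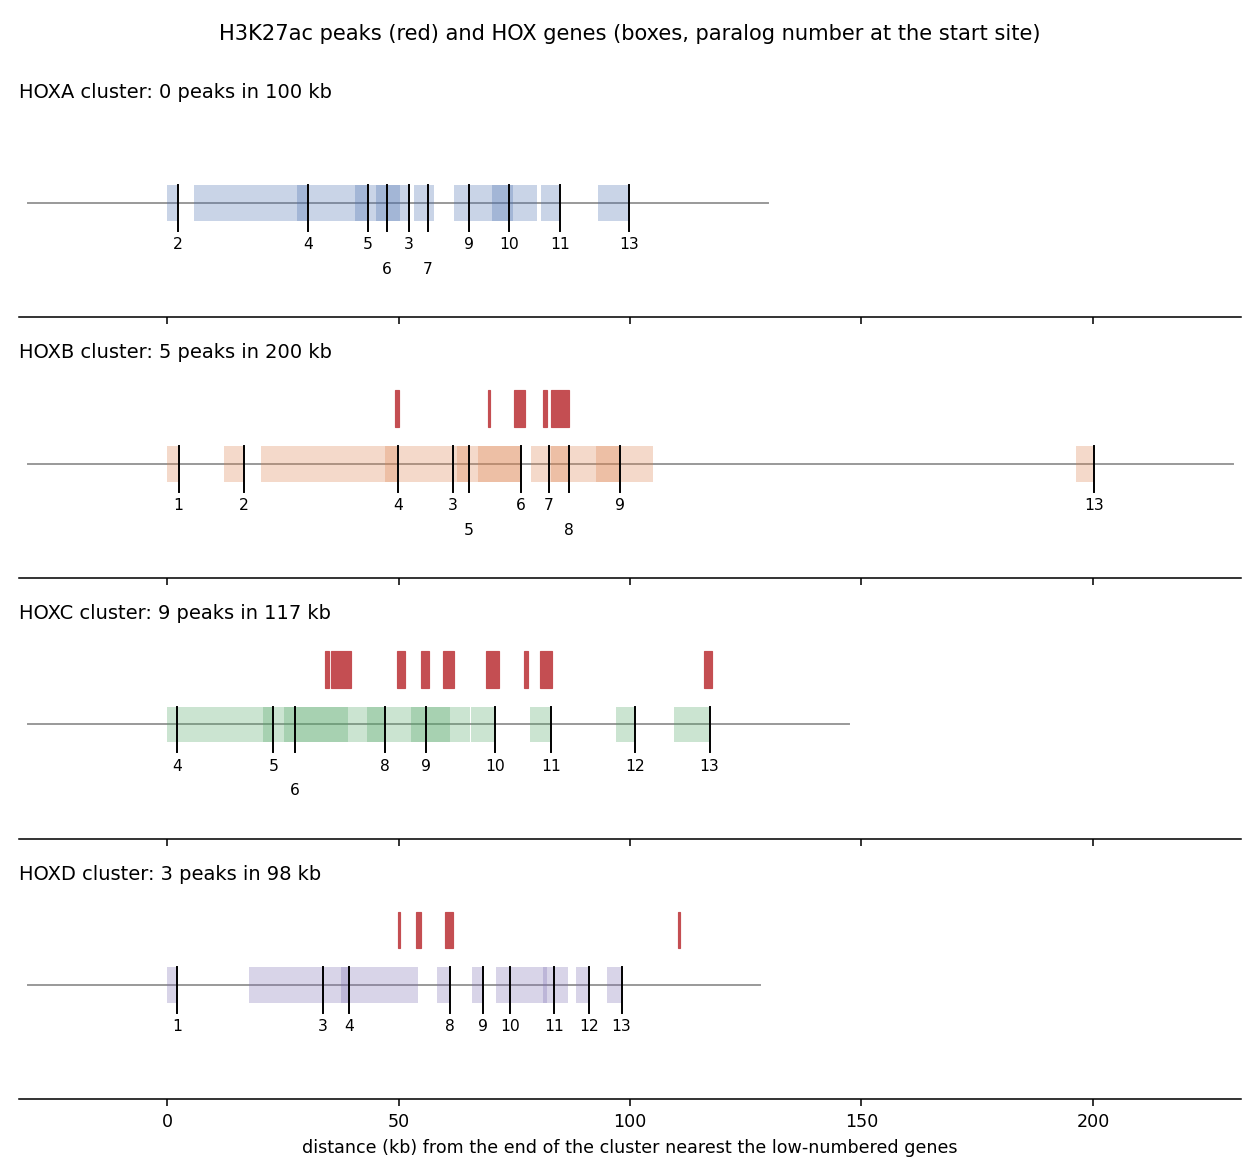
The 4 clusters drawn to scale in kb from the end nearest the low-numbered genes, with gene boxes, start sites as black lines with the paralog number, and H3K27ac peaks in red above. HOXA has no peak, HOXB has 5 in the middle of its body, HOXC has 9 from HOXC13 to the introns of HOXC4 and HOXC6, and HOXD has 3 between HOXD8 and HOXD4.

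HOXC was acetylated over high-numbered genes that pattern the lower trunk and hindlimb, and over upstream starts of HOXC4 and HOXC6. HOXC13, a gene of hair and nail, had its start site in a peak of 1650 bases (chromosome 12, 53938301 to 53939950). The start of HOXC11 lay in a peak of 2580 bases, that of HOXC10 in a peak of 2880 bases and that of HOXC9 in a peak of 1810 bases. Coverage within 3 kb of the representative start site, which is the MANE Select transcript or else the Ensembl canonical one, was 1650 bases for HOXC13, 2580 for HOXC11, 2880 for HOXC10 and 1810 for HOXC9. The median over all protein-coding genes was 920 bases. HOXC12 stood between acetylated neighbours without a peak, in a stretch of 32.84 kb free of peaks, and its start was 14.95 kb from the nearest one.

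The low-numbered HOXC genes depended on which start site was read. HOXC4 and HOXC6, genes of the neck and chest region, had no peak within 3 kb of the representative start, which stood 31.98 kb from a peak for HOXC4 and 6.58 kb for HOXC6. An upstream start of HOXC4, 36.9 kb before the representative one, lay in the widest peak of all 4 clusters, which measured 4300 bases (chromosome 12, 54016401 to 54020700). Of all peaks in the list, 96.9% were no wider. One upstream start of HOXC6, 33.5 kb before its representative start, lay in a peak of 2470 bases that also held starts of HOXC9. HOXC5 has a single GENCODE start, 11.19 kb from a peak. Its RefSeq start, which it shares with the RefSeq entry of HOXC4, lies at 54016888 inside the 4300-base peak. HOXC8 was counted through the edge of a peak 2645 bases upstream of its start, with 356 bases inside the 3-kb window.

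HOXB was acetylated in its middle genes, which act in the neck, trunk and blood lineages. HOXB8 was the most covered of all, with 99.6% of its gene body inside a peak of 4060 bases (chromosome 17, 48611391 to 48615450), a width that 96.3% of all peaks did not exceed. The start of HOXB7 lay in a gap of 900 bases between this peak and one of 750 bases, 374 bases from the wider one, and 3377 bases around it were in peaks. HOXB6 had its start in a peak of 2390 bases, and HOXB4 had its start in a peak of 860 bases. HOXB3 was counted through 3 of its other start sites, while its representative start was 7.52 kb from a peak. HOXB5, between HOXB4 and HOXB6, missed the 3-kb limit with a distance of 3982 bases to a peak of 480 bases. That peak was narrow, since 12.4% of all peaks were no wider and the narrowest measured 400 bases.

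Both ends of HOXB were free of peaks. HOXB1, a gene of the fourth hindbrain segment, was 46.8 kb from the nearest peak, and HOXB2 was 32.7 kb from it. HOXB9 was 10.9 kb from the nearest peak, and HOXB13, a gene of the prostate and hindgut that stands apart from the rest of the cluster, was 73.0 kb from it. A stretch of 477.1 kb without peaks took in HOXB1 and HOXB2, and a stretch of 186.3 kb took in HOXB9 and HOXB13. The neighbouring prostate-associated genes PRAC1 and PRAC2 lay in the latter stretch without a promoter peak.

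HOXD, whose high-numbered genes build the limb and the genitalia, was acetylated at 1 gene and at an upstream start of another. HOXD8 had its start in a peak of 1670 bases (chromosome 2, 176129231 to 176130900) that covered 40.2% of the gene. HOXD3 was counted through a pair of starts 20.7 and 20.35 kb upstream of its representative one, both in a peak of 1070 bases that also held the start of the antisense gene HOXD-AS2. A further peak of 440 bases lay in an intron of HOXD3, and 7.33% of all peaks were no wider than it. The limb genes HOXD9, HOXD10, HOXD11, HOXD12 and HOXD13 had no promoter peak and stood between 6.51 and 21.95 kb from one. HOXD1 was 47.7 kb from a peak and HOXD4 was 10.6 kb from one.

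**Figure D3:**
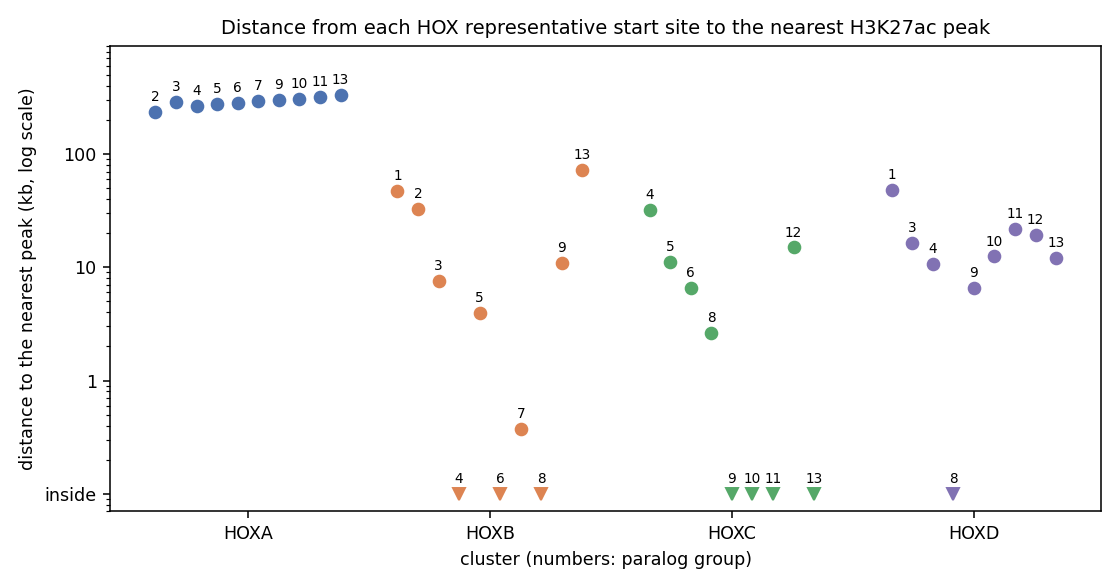
Distance from the representative start site of each HOX gene to the nearest H3K27ac peak (y axis, kb, log scale), by cluster, with the paralog group above each point and triangles at the bottom for starts inside a peak. The HOXA points lie from 237.4 to 334.8 kb, above those of every other cluster, and 8 starts lie inside a peak.

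With only the representative start considered, 8 of the 38 genes had it inside a peak (21.1%, 11.1 to 36.3, 95% Wilson interval), beside 53.5% of all protein-coding genes. These were HOXB4, HOXB6, HOXB8, HOXC9, HOXC10, HOXC11, HOXC13 and HOXD8. The interval takes the genes as independent, which neighbours in a cluster are not, so it is too narrow to compare with the genome share. The median distance to the nearest peak was 13.7 kb over HOX genes and 0 kb over all protein-coding genes. With any start counted, 2 of 7 genes of paralog groups 1 to 3 had a promoter peak. The counts were 8 of 15 for groups 4 to 8 and 4 of 16 for groups 9 to 13. Representative starts inside a peak numbered 0 of 7, 4 of 15 and 4 of 16 in the same classes. The higher share of groups 4 to 8 over groups 9 to 13 thus depended on the starts and window counted. All 4 in groups 9 to 13 were HOXC genes. Both in groups 1 to 3, and HOXC4 and HOXC6 in groups 4 to 8, were counted only through another start. HOXB7 and HOXC8 had their representative starts outside peaks, 374 and 2645 bases from one. Paralogs of 1 group often differed. Of the 13 groups, 8 held genes with and without a promoter peak, 4 (groups 1, 2, 5 and 12) held none with one, and in group 8 every gene had one. In group 9, HOXC9 had its start inside a peak while HOXA9, HOXB9 and HOXD9 had no promoter peak. Group 8 consisted of HOXB8, HOXC8 and HOXD8, with HOXC8 counted only through the edge of a peak 2645 bases away. In group 5, the RefSeq start of HOXC5 lay inside a peak, unlike the GENCODE start counted here.

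**Figure D4:**
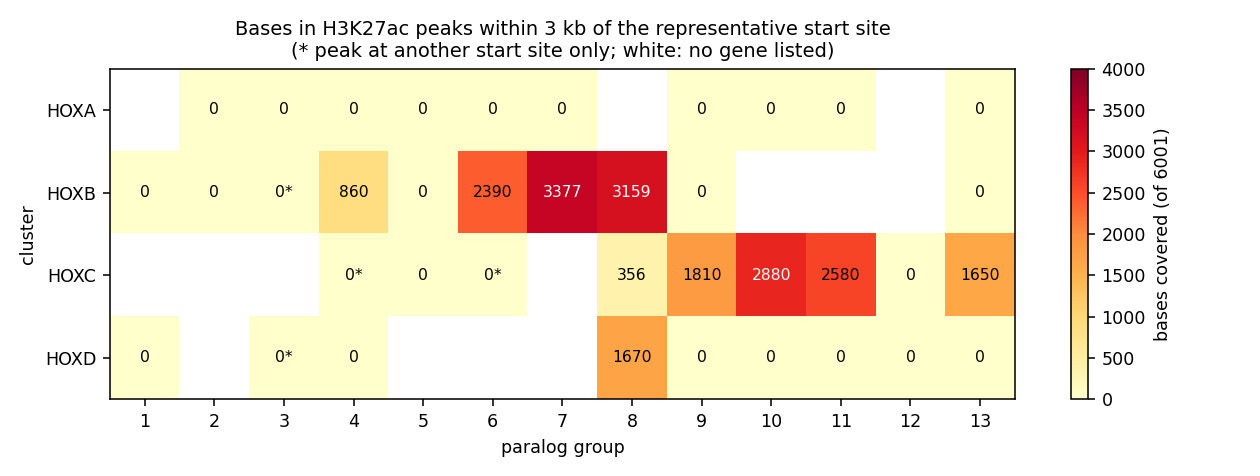
Bases in H3K27ac peaks within 3 kb of the representative start site for each HOX gene, with clusters as rows, paralog groups as columns and darker colour for more bases. Values above 0 stand in HOXB groups 4 and 6 to 8, in HOXC groups 8 to 11 and 13, and in HOXD group 8, and an asterisk marks the 4 genes counted only through another start.

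Of the 17 peaks in the bodies, 14 (82.4%) lay within 3 kb of a HOX start site and 11 contained one. The bodies are dense in start sites, and 58.1% of their bases lie within 3 kb of one. Over the whole list, 51.7% of peaks lay within 3 kb of a protein-coding start site. In 6 of these 11 the same peak also held the start of a named antisense or long noncoding RNA gene. HOTAIR, the long noncoding RNA that binds Polycomb proteins, started in the 2580-base peak of HOXC11. HOXC13-AS, HOXC-AS3 and HOXC-AS1 started in the peaks of HOXC13, HOXC10 and HOXC9, and a start of HOXC-AS2 lay in the 2470-base peak upstream of HOXC9. A peak has no strand, so the signal of a HOX gene and that of its antisense neighbour cannot be told apart here. In all, 7 of 24 named long noncoding RNA genes with their start in the windows had a promoter peak. Genome-wide the share was 27.7% of long noncoding RNA genes, named or not, so the sets are not alike. They were 5 of 8 in HOXC, 1 of 6 in HOXB, 1 of 3 in HOXD and 0 of 7 in HOXA.

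The 14 peaks that served HOX promoters had a median width of 1740 bases (480 to 4300), and the 15916 promoter peaks of all protein-coding genes had a median of 1320 bases. The HOX genes share these peaks, since 6 of the 14 served at least 2 members and 1 served 3, namely HOXB3, HOXB6 and HOXB7. Members of a cluster are therefore not independent observations. Peaks in the bodies had a median GC content of 61.5% and an observed over expected CpG of 0.665, close to the 59.1% and 0.673 of all promoter peaks. Over all peaks in the list these medians were 53.6% and 0.407.

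Joining peaks within 12.5 kb, the stitching distance of the study, gave 5 regions that touched a cluster body. The first in rank was a HOXC region of 8 peaks that together measured 17.12 kb across 49.07 kb (chromosome 12, 53972791 to 54021860). It ranked 206 by summed width among 17049 regions and contained the representative starts of HOXC8, HOXC9, HOXC10 and HOXC11. A HOXB region of 4 peaks over HOXB6, HOXB7 and HOXB8, which together measured 7.68 kb across 17.69 kb, ranked 948. The HOXD region of 3 peaks measured 3.18 kb and ranked 3435. HOXC13 and HOXB4 each stood in a region of a single peak.

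The bodies were also compared with 103 tiles of 100 kb elsewhere that held at least 8 protein-coding start sites, another comparison chosen after the clusters had been seen. Of these, 10 (9.71%) had no peak, as HOXA did. Their median coverage by peaks was 10.7%, with quartiles of 5.61% and 15.8%. HOXC lay above that median and HOXB and HOXD lay below the lower quartile. The HOXB body is not like a tile, because it measures 200.2 kb and includes the long interval without peaks before HOXB13. Its place among the tiles therefore does not describe its gene-dense part. Over the genome outside assembly gaps, peaks covered 1.50% of bases.

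The flanks held 6 peaks. The neighbours of HOXD were acetylated at their starts, LNPK in a peak of 1390 bases and MTX2 in a peak of 1160 bases. EVX2, the homeobox gene next to HOXD13, had a peak of 520 bases over an exon, 3382 bases from its start and so outside the promoter window. Of all peaks, 16.7% were no wider than this one. Beyond HOXC13, 67950 bases from its peak, stood a pair of intergenic peaks of 1720 and 2910 bases. A peak of 1210 bases lay within TTLL6 beyond HOXB13.

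Of the microRNAs of the clusters, 4 are shown with their seed, bases 2 to 8, in capitals (RefSeq, GRCh38.p14). The miR-196 pair was chosen because its members share the seed AGGUAGU while their loci differ in the distance to a peak, and the others because their arms come from loci in HOXB and HOXC. The miR-196 family is known to repress HOX mRNAs, HOXB8 among them.
hsa-miR-196a-5p: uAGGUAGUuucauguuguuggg
hsa-miR-196b-5p: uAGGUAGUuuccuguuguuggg
hsa-miR-10a-5p: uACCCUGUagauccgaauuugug
hsa-miR-615-3p: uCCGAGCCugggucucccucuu
Of the loci that give miR-196a-5p, MIR196A2 in HOXC (chromosome 12, 53991738 to 53991847, plus strand) was 2.26 kb from the 2470-base peak, measured from the middle of the hairpin, and MIR196A1 in HOXB (chromosome 17, 48632490 to 48632559, minus strand) was 17.1 kb from a peak. MIR196B, the HOXA locus with the same seed (chromosome 7, 27169480 to 27169563, minus strand), was 304.2 kb from a peak. MIR10A (chromosome 17, 48579838 to 48579947, minus strand) lay 1.20 kb from the 860-base peak at HOXB4. MIR10B in HOXD was 9.42 kb from a peak and MIR615 in HOXC was 12.1 kb from one. MIR7704 in HOXD was 47.9 kb and MIR3185 in HOXB 77.3 kb from a peak.

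EA1 keeps the DNA-binding domain of ATF1, which recognises TGACGTCA, so this motif and others were counted on both strands in the 17 peaks of the bodies. TGACGTCA was found in 1 of them (5.88%), beside 2.58% of all peaks and 3.83% of promoter peaks. It lay in the 2880-base HOXC10 peak on chromosome 12 from 53985034 to 53985041, beginning at position -31 from the outermost HOXC10 start. The flexible form TGANNTCA, which includes TGACGTCA, was found in 4 of the 17 (23.5%), beside 40.8% of all peaks and 36.6% of promoter peaks. The AP1 site TGAGTCA was found in 0 of the 17, beside 16.8% of all peaks and 15.7% of promoter peaks. The sets differ in width, with medians of 1650 bases for body peaks, 1060 for all peaks and 1320 for promoter peaks. With 17 peaks these shares are coarse and no difference was tested.

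HOX proteins bind DNA with PBX partners at TGATNNAT, and some HOX promoters carry this site themselves. It occurred on either strand in 4 of the 17 peaks (23.5%), beside 24.9% of all peaks and 21.8% of promoter peaks. Among the 27 RefSeq HOX promoters of 300 bases it occurred in 3 (11.1%), beside 7.40% of all such promoters. The 3 matches are printed in capitals with 16 bases on each side, on the strand of the gene, because PBX and HOX proteins are known to act together at such sites. All 3 stood at genes without a promoter peak, but 24 of the 27 promoters searched had their start outside peaks.
HOXB1 (chr17:48531113-48531152, minus strand): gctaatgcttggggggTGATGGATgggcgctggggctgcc
HOXA2 (chr7:27102774-27102813, minus strand): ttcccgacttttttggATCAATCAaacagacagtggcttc
HOXD11 (chr2:176107197-176107236, plus strand): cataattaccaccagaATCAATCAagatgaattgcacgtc
Counted from the start site, the matches began at position -125 in HOXB1, -114 in HOXA2 and -67 in HOXD11. The matches inside body peaks included ones at position -30 from a HOXC11 start, 20 from a HOXC9 start and 49 from a HOXC4 start. TATAAA occurred in 5 of the 27 HOX promoters (18.5%) and in 11.5% of all promoters, and TGACGTCA and TGAGTCA in none of the 27, beside 1.85% and 4.95% of all promoters.

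Genes that work with or upstream of the HOX clusters were read in the same way, from lists chosen with earlier results of these data known. All 9 TALE genes, the PBX, MEIS and PKNOX cofactors of HOX proteins, had a promoter peak, with a median of 2370 bases in peaks within 3 kb of the start. So did all 13 Polycomb genes (median 1550 bases) and all 8 genes of the MLL group (median 2175 bases). Among genes of retinoic acid, a signal that turns on low-numbered HOX genes, 6 of 9 had one, and RARB, CYP26A1 and CYP26B1 did not. Of the 6, ALDH1A2 was counted only through another start, its representative start being 266.6 kb from a peak. None of the 6 ParaHox genes, the sister group of the HOX clusters, had a promoter peak. The share over all protein-coding genes was 63.4%, as above. Of 8 melanocytic and neural crest markers, 7 had a promoter peak, SOX10, MITF and PMEL among them and TYR not. MLANA was counted only through another start, its representative start being 4.51 kb from a peak. Of 7 markers of other lineages, 0 had a promoter peak. Because these lists were chosen with earlier results known, they are no independent check of the line.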

How the data were processed

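H3K27ac ChIP and input libraries of SU-CCS-1 were sequenced in 3 replicates each. Alignment by the authors used BWA (0.7.10-r789) and hg38, duplicates were removed, and broad peaks called against input with MACS2 (2.2.6) were cleared of denylisted regions. They deposited start and end positions of merged peaks, with no signal, p-value or count, so depth per sample is unknown and loci without a peak missed the calling cutoff or were filtered out, which does not show that they lacked acetylation. Whether reads or peaks were merged is not given in the sources used here.

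Peaks were intersected with GENCODE 44 start sites (3 kb), and promoter and microRNA sequences came from RefSeq tables on GRCh38.p14, whose coordinates are those of hg38. Positions count from 1. Genes shared by X and Y were counted once. Python (3.11.15), numpy (2.4.6) and scipy (1.17.1) were used, and overlap code was checked on constructed intervals. Values are descriptions without tests, because no replicate values exist. The members, lists and motifs were chosen with earlier results of these data known. Genes named were HOX members, genes inside the windows and genes of the lists. HOX promoters without a RefSeq entry were not searched, and 1 further HOX gene is not reported here.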

Additional observations from a re-analysis of the deposited data

How the results depend on the processing

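The count of HOX genes with a promoter peak stayed between 10 and 14 over 7 of the 8 alternatives tried (narrower windows, coding transcripts, 1 representative transcript, peak midpoints, starts inside a peak and the widest 50% of peaks). Over these 7 the HOX share ran from 26.3% to 36.8% and that of all protein-coding genes from 49.0% to 62.8%, with the HOX share lower under each. The count fell to 9 with the widest 25% of peaks, since fewer peaks entered by construction. Under that setting the HOX share was 23.7% and that of all protein-coding genes 26.9%. The gap between HOX genes and all genes was therefore much smaller for wide peaks. HOXA had 0 such genes under every one of these 8 settings. That outcome was fixed in advance, since its window held no peak and no setting added peaks. The number of stitched regions touching a cluster body rose from 5 to 10 with a stitching distance of 5 kb, as a shorter distance joins fewer peaks. In all, 24 of 26 alternatives over 7 results stayed within 1.5 times the value given. Among them are the alternatives for HOXA coverage, which could only give 0. With no signal in the list, width stood in for a stricter threshold. No paired analysis was possible because no replicate has a column of its own in the list, and leaving replicates out could not be done either.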

Other observations

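Retinoic acid receptors bind direct repeats of AGGTCA with 5 bases between the copies. Exact copies of this repeat numbered 663 in the genome, or 0.226 per Mb, and 0 lay in the 1315.35 kb of the 4 cluster windows, in which fewer than 1 would lie at that rate. Receptor sites that depart from these letters were not searched.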
